A study of Mus musculus with 10 samples.

Results

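A set of 9 receptors that guide or tune the migration of leukocytes was followed in mouse bone marrow–derived macrophages (BMDMs) stimulated through the RNA sensor TLR7. They were the chemokine receptors Ccr1, Ccr2, Ccr7, Cx3cr1 and Cxcr4, the atypical chemokine receptor Ccrl2, the formyl peptide receptor Fpr2, the oxysterol receptor Gpr183 and the cannabinoid receptor Cnr2, that is 9 of the 55573 genes in the table. The members were chosen by name as migration receptors, with their CPM across the 5 treatment groups of these same libraries already known, so their levels and differences are a description and carry no test. Of the 9, 8 passed the filter on low values, which asked for at least 1 CPM (a gene's reads scaled to a common library total) in at least 2 libraries, and Ccr7 did not. A gene that is low in every group but 1 can pass such a filter through that group, so counts over the 8 are not counts over all members.

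The cells came from the marrow of female C57BL/6 mice of WT genotype, were cultured with MCSF and were exposed for 4 hours to 1 of 5 conditions, each with 2 libraries labelled as biological replicates. The vehicle group was the control. The polyU group received 5 μg of poly-uridine, a synthetic ssRNA, complexed with the carrier lipid DOTAP. The PNPi+dG/rG group received 1 μM ulodesine, which inhibits purine nucleoside phosphorylase, together with 5 μM deoxyguanosine (dG) and 5 μM guanosine (rG), nucleosides that this enzyme breaks down. The PNPi+dG/rG+polyU group received both, and the R848 group received 1 ng/mL of the synthetic imidazoquinoline TLR7 agonist R848. The age of the mice, the number of mice behind each library and whether the vehicle contained DOTAP are not given in the sources used here, so the spread within a pair may be partly technical.

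Each receptor in the set is a G protein–coupled receptor or, for Ccrl2, a relative that binds a ligand without signaling through G proteins. Chemokine receptors read gradients of small secreted proteins: Ccr2 brings monocytes out of the marrow, Cxcr4 holds leukocytes there through Cxcl12, Cx3cr1 binds the membrane-anchored chemokine fractalkine, and Ccr7 leads dendritic cells to lymph nodes. Gpr183 follows the oxysterol 7α,25-dihydroxycholesterol, Cnr2 binds endocannabinoid lipids, Fpr2 binds formylated and other peptides, and Ccrl2 presents the chemoattractant chemerin to neighboring cells. Macrophages are known to change their chemoattractant receptors when Toll-like receptors are engaged.

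The libraries held 14128128 to 38392592 reads on genes, and 3 reads, taken as the smallest detectable amount, were worth 0.0781 to 0.212 CPM. Depth was highest with PNPi+dG/rG and lowest with PNPi+dG/rG+polyU. The summed level of 10 macrophage markers was 15866 to 18931 CPM in every library, and the macrophage genes Adgre1, Cd68 and Csf1r were each above 1000 CPM throughout. B cell markers summed to 0.141 to 1.29 CPM with Cr2 and Fcer2a at 0 reads, and dendritic cell markers summed to 52.5 to 110.5 CPM, nearly all from Itgax and Ccl22, with Xcr1 and Cd209a at 0 reads. Neutrophil markers summed to 16.0 to 23.1 CPM outside R848 and to 62.0 and 63.6 CPM in it. The R848 sum came almost wholly from Mmp8 (40.6 CPM on average) and S100a8 (22.2 CPM), while S100a9 was lower there than in vehicle (0.027 against 1.32 CPM), Ngp, Ltf, Mpo and Elane were at 0 reads, and Ly6g and Retnlg had 0 reads in every library. T cell markers summed to 51.3 to 420 CPM, of which Il7r made up most (389 CPM on average in vehicle and 47.0 in R848), with Cd3d and Cd3e at 0 reads. Cd4 averaged 7.83 CPM in vehicle and 0.843 in R848, Trac 3.62 and 3.39, and Lck 0.646 and 0.689. In these bulk samples, fewer cells that carry a receptor and less of its RNA per cell cannot be told apart.

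The promoters of 4 members are shown, 2 that were higher and 2 that were lower with stimulation, so that both kinds can be read side by side. The windows are the 250 bases before the transcript start in RefSeq on GRCm38.p6, written 5′ to 3′ on the strand of the gene, and 8 of the 9 members matched a window by symbol. Ccr7 is named only. Capitals mark matches on either strand to 4 motifs: an NF-κB site, the IRF core AANNGAAA, the AP-1 site TGANTCA and the PU.1 core GAGGAA. The first 2 windows, of Ccrl2 (chr9:111057519-111057768, minus strand) and Fpr2 (chr17:17887574-17887823, plus strand), belong to genes that were higher after stimulation. The last 2, of Gpr183 (chr14:121965194-121965443, minus strand) and Cxcr4 (chr1:128592300-128592549, minus strand), belong to genes that were lower.
Ccrl2: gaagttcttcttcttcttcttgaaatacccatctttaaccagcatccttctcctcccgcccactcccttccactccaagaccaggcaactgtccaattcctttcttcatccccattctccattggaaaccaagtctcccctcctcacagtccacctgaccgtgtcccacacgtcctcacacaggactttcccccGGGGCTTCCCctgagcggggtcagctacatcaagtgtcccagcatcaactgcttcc
Fpr2: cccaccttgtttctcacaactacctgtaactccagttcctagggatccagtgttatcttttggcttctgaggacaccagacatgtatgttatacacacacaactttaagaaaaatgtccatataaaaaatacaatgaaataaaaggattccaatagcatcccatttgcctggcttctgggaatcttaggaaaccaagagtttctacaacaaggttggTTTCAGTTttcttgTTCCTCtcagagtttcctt
Gpr183: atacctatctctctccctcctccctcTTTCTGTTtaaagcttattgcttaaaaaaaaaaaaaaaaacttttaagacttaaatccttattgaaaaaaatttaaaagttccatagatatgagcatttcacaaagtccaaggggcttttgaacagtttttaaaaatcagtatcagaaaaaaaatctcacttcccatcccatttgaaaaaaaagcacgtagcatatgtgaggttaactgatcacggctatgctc
Cxcr4: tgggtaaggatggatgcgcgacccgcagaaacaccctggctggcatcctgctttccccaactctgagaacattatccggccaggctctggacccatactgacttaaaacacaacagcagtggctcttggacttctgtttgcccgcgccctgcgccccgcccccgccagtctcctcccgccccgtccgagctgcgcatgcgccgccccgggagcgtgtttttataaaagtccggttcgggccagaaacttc

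RefSeq gives Ccrl2 3 windows for different starts, of which the first is printed. It held the only NF-κB match among the members' windows, beginning at -56 from the start, and the other 2 held none of the 4 motifs. Of all 32851 promoter windows of this length, 3.9% hold an NF-κB match. The Fpr2 window held an IRF core beginning at -33 and a PU.1 core beginning at -19, and the Gpr183 window an IRF core beginning at -224. Of all windows, 21.3% hold the IRF core and 23.3% the PU.1 core. The Ccr1 window held both as well. The windows of Cxcr4, Ccr2 and Cx3cr1 and both windows of Cnr2 held none of the 4 motifs, and no member held the AP-1 site, which is in 6.75% of all windows. A match is a run of letters in this window and not a measured binding site.

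In outline, the leading members per kilobase of exon were Cxcr4, Cnr2, Gpr183 and Cx3cr1 in vehicle macrophages, and Ccrl2 and Fpr2 in those treated with PNPi+dG/rG+polyU or R848. For each of these 6 receptors the difference from vehicle was smaller with polyU alone and with PNPi+dG/rG alone than with both. Ccr1 and Ccr2 differed from vehicle by at least 2-fold in R848 only, and Ccr7 stayed under 1 CPM everywhere. The plot of CPM in each library shows this exchange.

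**Figure D1:**
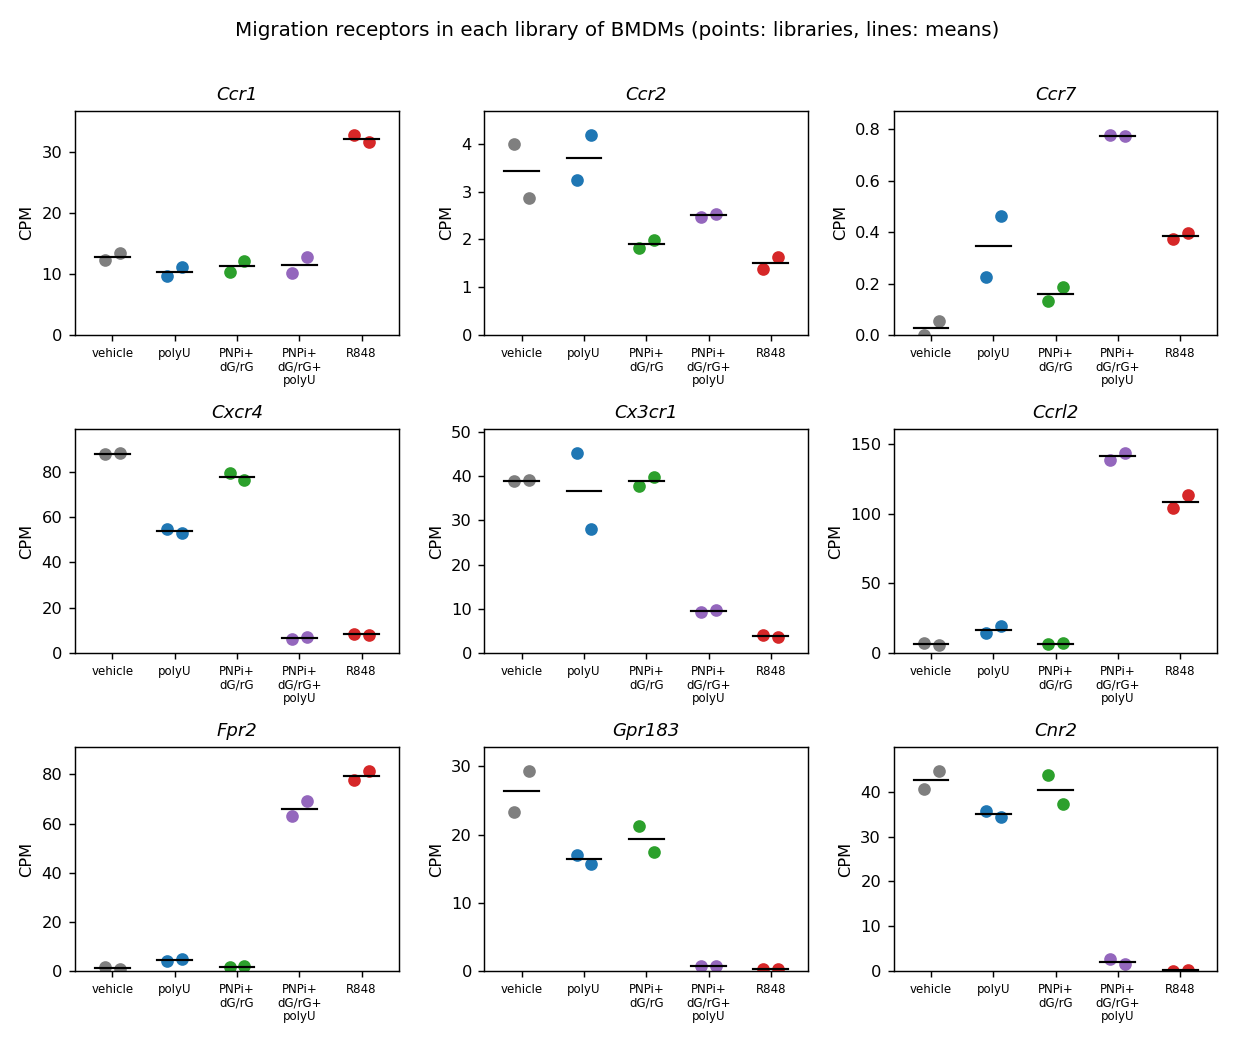
CPM of the 9 receptors in each of the 10 libraries, 1 panel a gene on a linear axis from 0, with points for libraries and lines for the mean of the 2 libraries of a group. Cxcr4, Cx3cr1, Gpr183 and Cnr2 are low, and Ccrl2 and Fpr2 high, in the PNPi+dG/rG+polyU and R848 libraries, and Ccr1 is high in R848 alone, at 32.9 and 31.7 CPM.

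Cxcr4 (ENSMUSG00000045382, chr1:128588199-128592293, minus strand of GRCm38) is the receptor for the stromal chemokine Cxcl12. It measured 87.8 and 88.3 CPM in the vehicle libraries, 54.6 and 52.9 in polyU, 79.4 and 76.3 in PNPi+dG/rG, 6.37 and 6.96 in PNPi+dG/rG+polyU, and 8.44 and 8.05 in R848. No pair of groups overlapped, and the order ran from vehicle down through PNPi+dG/rG, polyU and R848 to PNPi+dG/rG+polyU. Its mean was 13.2-fold lower than vehicle in PNPi+dG/rG+polyU, a log2 difference of -3.72 ± 0.075 (SE, n = 2 and 2), and 10.7-fold lower in R848. It was the one member that was lower in PNPi+dG/rG+polyU than in R848 among the 4 that were strongly reduced in both, by a log2 difference of -0.31 ± 0.075. The sum of its drops under the single treatments left -2.83 ± 0.106 on the log2 scale to the combination, which is the interaction, the effect of adding PNPi+dG/rG to polyU minus that of adding it to vehicle. Its ligand Cxcl12 was at 3 reads over both vehicle libraries, and at 94 reads over the R848 pair, 21.7 times the vehicle rate with an exact 95% interval of 7.19 to 107. This interval and the exact intervals given further on cover counting error only, and replicate libraries differed by more than that.

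Cx3cr1 (ENSMUSG00000052336, chr9:119901616-120069879, minus strand) is the fractalkine receptor of monocytes and resident macrophages. Its level was 38.8 and 39.2 CPM in vehicle, 45.2 and 28.1 in polyU, 37.9 and 39.7 in PNPi+dG/rG, 9.20 and 9.71 in PNPi+dG/rG+polyU, and 4.09 and 3.70 in R848. The first 3 groups overlapped, with the widest spread within polyU, and both strongly stimulated groups lay below all of them and apart from each other. The mean was 4.12-fold lower than vehicle in PNPi+dG/rG+polyU (log2 difference -2.04 ± 0.169) and 10.0-fold lower in R848 (-3.32 ± 0.169). Cx3cl1, its only ligand, rose in R848 from 3.76 and 3.71 CPM to 17.2 and 18.7 CPM (log2 difference 2.26, adjusted p = 9.63e-10, limma), and in PNPi+dG/rG+polyU it reached 6.65 and 7.03 CPM, under 2-fold (0.87). A noncoding gene on the other strand, Gm33858, shares 78 exon bases with Cx3cr1 and was at most 0.134 CPM.

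Ccr2 (ENSMUSG00000049103, chr9:124101950-124113557, plus strand), the receptor of inflammatory monocytes for Ccl2, Ccl7 and Ccl12, was low throughout. The libraries gave 3.98 and 2.87 CPM in vehicle, 3.24 and 4.18 in polyU, 1.82 and 1.98 in PNPi+dG/rG, 2.48 and 2.53 in PNPi+dG/rG+polyU, and 1.38 and 1.62 in R848, from 26 to 74 reads each. Vehicle and polyU overlapped, and the other groups lay below them and did not overlap each other. R848 was 2.28-fold below vehicle (log2 difference -1.17 ± 0.244), a call that was lost without vehicle replicate 1, when libraries were centered on their medians and with a pseudocount of 1. PNPi+dG/rG alone gave -0.83 ± 0.244, which did not pass.

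The ligands of Ccr2 differed between the 2 stimuli. Ccl12 rose from 4.38 and 4.21 CPM in vehicle to 53.6 and 58.8 CPM in PNPi+dG/rG+polyU (log2 difference 3.71, adjusted p = 4.67e-13, limma) and to 13.9 and 14.0 CPM in R848 (1.70). Ccl7 rose with PNPi+dG/rG+polyU from 123 and 112 to 352 and 422 CPM (1.71, adjusted p = 5.25e-10, limma), and R848 left it at 153 and 157 CPM (0.40). Ccl2, the main chemoattractant of monocytes, was at 571 and 702 CPM in PNPi+dG/rG+polyU and at 246 and 255 CPM in R848, against 374 and 334 CPM in vehicle. The direct contrast of the 2 stimuli passed for all 3, with log2 differences of PNPi+dG/rG+polyU from R848 of 2.01 for Ccl12, 1.34 for Ccl2 (adjusted p = 1.11e-06, limma) and 1.31 for Ccl7. With centering, Ccl2 (0.96) and Ccl7 (0.93) came under 2-fold and, of the 3, only Ccl12 was still called.

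Ccr1 (ENSMUSG00000025804, chr9:123962124-123968692, minus strand), a receptor of monocytes and neutrophils for Ccl3, Ccl5, Ccl6 and Ccl9, was higher in R848 and not in PNPi+dG/rG+polyU. It was at 12.3 and 13.5 CPM in vehicle, 9.66 and 11.1 in polyU, 10.4 and 12.1 in PNPi+dG/rG, 10.1 and 12.8 in PNPi+dG/rG+polyU, and 32.9 and 31.7 in R848. Neighbors among the 4 groups other than R848 overlapped, and R848 was 2.50-fold above vehicle (log2 difference 1.33 ± 0.127). PNPi+dG/rG+polyU differed from vehicle by -0.18 ± 0.127 and from R848 by -1.50 ± 0.127. Of the neutrophil markers, Mmp8 and S100a8 were also highest in R848, while S100a9, Ngp and Ltf were at or near 0 there and Ly6g and Retnlg had 0 reads in all libraries.

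Of the ligands of Ccr1, Ccl3, Ccl5 and Ccl9 rose with both stimuli and Ccl6 did not. Ccl3 rose from 111 and 106 CPM in vehicle to 4514 and 4690 in PNPi+dG/rG+polyU and 5406 and 5639 in R848 (log2 differences of 5.41 and 5.67, adjusted p = 2.15e-15 for R848, limma). Ccl5 rose by 3.67 and 3.62, in the same groups from 46.0 and 51.8 CPM in vehicle. Ccl9 rose by 1.22 in PNPi+dG/rG+polyU and by 2.21 in R848, where it reached 3994 and 3951 CPM, and Ccl6 stayed between 262 and 329 CPM in all libraries.

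Ccr7 (ENSMUSG00000037944, chr11:99144196-99155077, minus strand), the lymph node homing receptor of mature dendritic cells, was near the floor. It had 0 reads and 1 read in the vehicle libraries, 4 and 8 in polyU, 5 and 7 in PNPi+dG/rG, 11 and 11 in PNPi+dG/rG+polyU, and 7 and 13 in R848. The highest level was 0.779 CPM, in PNPi+dG/rG+polyU, and the pooled level of that group had an exact Poisson interval of 0.486 to 1.18 CPM against 0.0281 CPM (0.000711 to 0.156) in vehicle. The ratio to the single vehicle read was 27.6 in PNPi+dG/rG+polyU, with an exact 95% interval of 4.47 to 1141, and 13.8 in R848, with 2.21 to 573. In PNPi+dG/rG, the deepest libraries, the ratio was 5.64 with an interval of 0.834 to 241, which spans 1. Both Ccr7 ligands in the list, Ccl19 and Ccl21a, had 0 reads in all 10 libraries.

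Ccrl2 (ENSMUSG00000043953, chr9:111054486-111057519, minus strand), the chemerin-presenting receptor, was higher with each treatment that contained polyU and with R848. It gave 7.52 and 6.01 CPM in vehicle, 14.5 and 19.3 in polyU, 6.46 and 7.14 in PNPi+dG/rG, 139 and 144 in PNPi+dG/rG+polyU, and 105 and 113 in R848. Vehicle and PNPi+dG/rG overlapped, and polyU, R848 and PNPi+dG/rG+polyU followed above them without overlap. Relative to vehicle the mean was 2.50-fold higher in polyU (log2 difference 1.31 ± 0.132), 20.9-fold higher in PNPi+dG/rG+polyU (4.39 ± 0.132) and 16.1-fold higher in R848 (4.02 ± 0.132). The difference between the 2 strong stimuli, 0.38 ± 0.132, was under 2-fold. The effect of PNPi+dG/rG was 3.07 ± 0.186 larger on the log2 scale with polyU than without it. Chemerin itself (Rarres2) was below the filter.

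Fpr2 (ENSMUSG00000052270, chr17:17887824-17893952, plus strand), which senses formyl peptides, serum amyloid A and annexin A1, rose from a low level. There were 1.46 and 0.899 CPM in vehicle, 4.26 and 4.77 in polyU, 1.64 and 1.98 in PNPi+dG/rG, 62.9 and 69.2 in PNPi+dG/rG+polyU, and 77.6 and 81.3 in R848. No 2 groups overlapped. The mean was 3.83-fold above vehicle in polyU (log2 difference 1.98 ± 0.187), 56.0-fold above it in PNPi+dG/rG+polyU (5.85 ± 0.187) and 67.4-fold above it in R848 (6.12 ± 0.187). Only 26 and 16 reads stand behind the vehicle level, so the base of these ratios has an exact Poisson interval of 0.850 to 1.59 CPM. PNPi+dG/rG alone gave 0.65 ± 0.187, which passed the call only without vehicle replicate 1 (1.00).

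The neighbor of Fpr2, Fpr1, lies 3.883 kb away on chromosome 17 and is the main receptor for bacterial formyl peptides. It rose from 1.96 and 1.35 CPM in vehicle to 96.0 and 99.7 CPM in PNPi+dG/rG+polyU and 186 and 196 CPM in R848 (log2 differences of 5.91 and 6.87, adjusted p = 1.07e-14 and 7.85e-16, limma). The ratio of Fpr1 to Fpr2 CPM, which is compared between libraries only, was 1.35 and 1.50 in vehicle, 2.43 and 2.00 in polyU, 0.810 and 0.743 in PNPi+dG/rG, 1.53 and 1.44 in PNPi+dG/rG+polyU, and 2.39 and 2.41 in R848. The highest ratios were thus in polyU and R848. Fpr1 was 0.96 lower on the log2 scale in PNPi+dG/rG+polyU than in R848, which did not reach 2-fold, and Fpr2 differed by -0.27 ± 0.187. Fpr3 shares 48 exon bases with Fpr2 on the same strand and was at most 0.142 CPM.

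Of the Fpr2 ligands, Saa3, a serum amyloid A made by macrophages, rose from 54.7 and 66.6 CPM in vehicle to 1458 and 1774 CPM in PNPi+dG/rG+polyU and 3508 and 3808 CPM in R848. The log2 differences were 4.74 (adjusted p = 4.43e-07, limma) and 5.92. Anxa1, a ligand tied to the resolution of inflammation, was already at 1169 and 1183 CPM in vehicle and was 0.62 higher on the log2 scale in PNPi+dG/rG+polyU, under 2-fold. Camp, the cathelicidin precursor, had 1 read over both vehicle libraries, 20 over the PNPi+dG/rG+polyU pair and 95 over the R848 pair, or 65.7 times the vehicle rate with an exact 95% interval of 11.5 to 2623.

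Gpr183 (ENSMUSG00000051212, chr14:121952551-121965195, minus strand), the oxysterol receptor that positions B cells and macrophages in lymphoid tissue, was almost lost. Vehicle libraries gave 23.3 and 29.3 CPM, polyU 17.0 and 15.7, PNPi+dG/rG 21.3 and 17.5, PNPi+dG/rG+polyU 0.708 and 0.703, and R848 0.266 and 0.276. The groups did not overlap and fell in the order in which they are named, except that PNPi+dG/rG lay above polyU. The mean was 37.3-fold below vehicle in PNPi+dG/rG+polyU (log2 difference -5.21 ± 0.181) and 97.3-fold below it in R848 (-6.60 ± 0.181). These levels rest on 20 and 14 reads over each pair of libraries, with exact Poisson intervals of 0.431 to 1.09 and 0.149 to 0.456 CPM. The higher level in PNPi+dG/rG+polyU than in R848, 1.38 ± 0.181 on the log2 scale, was no longer called with a pseudocount of 1, with centering, with only the groups compared in the fit or with voom. Gpr183 lies inside Ubac2, a gene on the other strand with which it shares no exon bases and which stayed between 30.5 and 37.2 CPM.

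Of the enzymes that make and break down the Gpr183 ligand, Ch25h and Hsd3b7 were tested. Ch25h, which makes 25-hydroxycholesterol, rose from 14.7 and 15.4 CPM in vehicle to 52.5 and 60.8 CPM in PNPi+dG/rG+polyU (log2 difference 1.91, adjusted p = 3.8e-10, limma) and to 44.5 and 49.6 CPM in R848 (1.64). Cyp7b1, which adds the 7α-hydroxyl group, was below the filter in every group. Hsd3b7, which breaks the ligand down, fell in R848 from 4.77 and 4.16 to 1.65 and 1.78 CPM (-1.38, adjusted p = 1.29e-05, limma), a call that was lost with centering (-0.79), and was at 2.55 and 3.17 CPM in PNPi+dG/rG+polyU (-0.65, under 2-fold).

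Cnr2 (ENSMUSG00000062585, chr4:135895394-135920207, plus strand), the cannabinoid receptor of immune cells, had the widest range among the members on the log2 scale. Its CPM was 40.6 and 44.6 in vehicle, 35.8 and 34.3 in polyU, 43.6 and 37.3 in PNPi+dG/rG, 2.62 and 1.62 in PNPi+dG/rG+polyU, and 0.0531 and 0.276 in R848. Vehicle and PNPi+dG/rG overlapped, polyU was lower than both, and the strongly stimulated groups were apart from the rest and from each other. PNPi+dG/rG+polyU was 20.1-fold below vehicle, with a log2 difference of -4.37 ± 0.766. R848 was 259-fold below it, a ratio that rests on 1 and 9 reads, and the pooled R848 level had an exact Poisson interval of 0.0931 to 0.357 CPM. The standard error of Cnr2, 0.766 in each comparison with vehicle, was the largest among the members, and its interaction of -4.01 ± 1.08 was no longer called when any library of the vehicle, polyU, PNPi+dG/rG or PNPi+dG/rG+polyU group was left out.

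Of the enzymes of endocannabinoid metabolism, Dagla and Daglb fell in both groups in which Cnr2 was low. Dagla, which makes 2-arachidonoylglycerol, fell from 57.8 and 56.6 CPM in vehicle to 4.95 and 5.56 in PNPi+dG/rG+polyU and 5.15 and 4.71 in R848 (log2 differences of -3.45 and -3.54, adjusted p = 2.83e-14 and 9.35e-15, limma). Its relative Daglb fell from 105 and 110 CPM to 28.4 and 26.0 in PNPi+dG/rG+polyU and further, to 8.55 and 8.48, in R848, and the contrast of the 2 stimuli was 1.67 (adjusted p = 6.75e-12, limma). Mgll, which breaks 2-arachidonoylglycerol down, fell in R848 (-2.58, adjusted p = 9.86e-07, limma), from 2.36 and 3.09 to 0.478 and 0.429 CPM, and was not called in PNPi+dG/rG+polyU (-0.43). Napepld, which makes anandamide, fell by 1.02 in PNPi+dG/rG+polyU, just past 2-fold, and that call was lost with centering, with a pseudocount of 1 and without vehicle replicate 1. In R848 it was not called (-0.78).

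**Figure D2:**
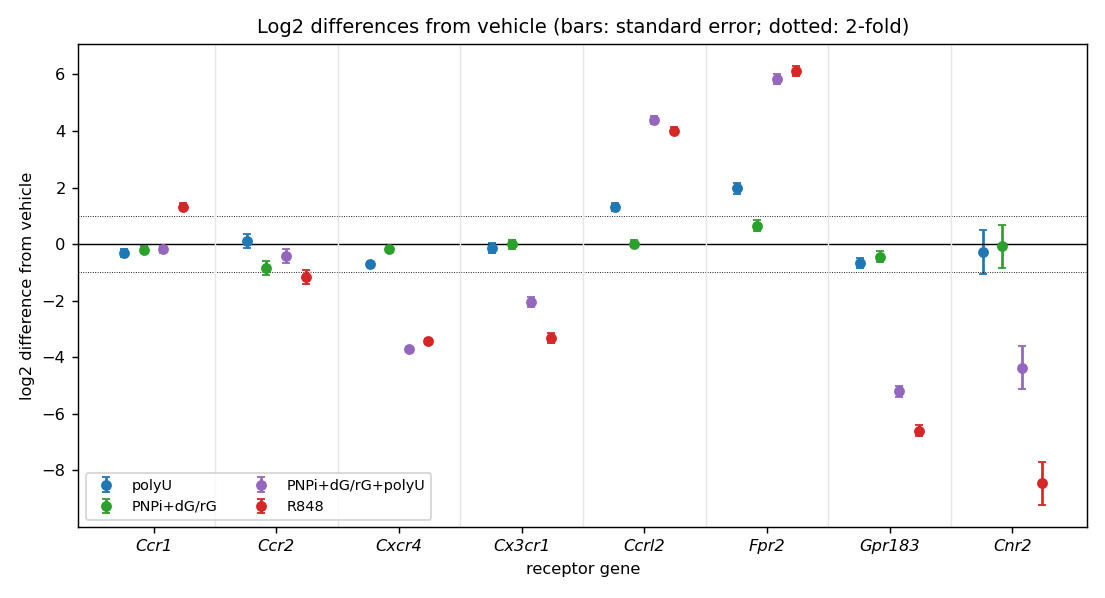
Log2 difference from vehicle of the 8 receptors that passed the filter, in the 4 treated groups, with bars for the standard error and dotted lines at 2-fold. Fpr2 and Ccrl2 lie above the upper line and Cxcr4, Cx3cr1, Gpr183 and Cnr2 below the lower line in both PNPi+dG/rG+polyU and R848, and Cnr2 has the widest error.

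The number of members past the call (limma, adjusted p under 0.05 over all 11978 genes tested and at least 2-fold) is given here beside the share of all genes, for description only. With polyU, 2 of 8 were higher (Fpr2 and Ccrl2) and none lower, where 3.21% of all genes were called higher and 0.776% lower. With PNPi+dG/rG, 0 of 8 were called, where 0.0668% of all genes were higher and 0.00835% lower. Of those 8, 4 had an unadjusted p under 0.05, as did 1076 of the 11978 genes tested, and voom on reads also called 0. That count too is a description, since the members were chosen with their values known. With PNPi+dG/rG+polyU, 2 were higher and 4 lower, against 8.12% and 14.3% of all genes. With R848, 3 were higher and 5 lower, against 8.89% and 30.3%. The R848 profile as a whole was shifted down, with a median log2 difference of -0.50 over all genes tested, and that of PNPi+dG/rG+polyU by -0.22, and the members' differences are to be read relative to these medians.

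Comparisons among the treated groups gave further contrasts. Against polyU alone, PNPi+dG/rG+polyU had 2 members higher (Fpr2 and Ccrl2) and 4 lower (Gpr183, Cnr2, Cxcr4 and Cx3cr1), where 5.29% of genes were called higher and 10.2% lower. The interaction gave the same split of 2 and 4, where 4.55% were called higher and 8.87% lower. It and the contrasts with vehicle share libraries and are not separate evidence. PNPi+dG/rG+polyU against R848 had 3 members higher (Cnr2, Gpr183 and Cx3cr1) and 1 lower (Ccr1), where 16.9% of genes were called higher and 3.86% lower, and centering the libraries left 1 and 1. Il7r, which dominates the T cell marker list, moved in the same direction as Cxcr4, Cx3cr1, Gpr183 and Cnr2, with means of 389 CPM in vehicle, 247 in polyU, 343 in PNPi+dG/rG, 76.7 in PNPi+dG/rG+polyU and 47.0 in R848. Of the other T cell genes, Cd3d and Cd3e were at 0 reads in all libraries, while Cd4, Trac and Lck had reads in every library. Mean CPM in vehicle and R848 was 7.83 and 0.843 for Cd4 and 3.62 and 3.39 for Trac.

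Between genes, levels were compared only per kilobase of merged exon. On that scale Cxcr4 made up 56.8% of the summed level of the 9 genes in vehicle, Cnr2 12.5%, Gpr183 10.6%, Cx3cr1 10.1%, Ccr1 5.30%, Ccrl2 3.04% and Fpr2 1.07%. PolyU kept Cxcr4 first at 44.5%, with Ccrl2 at 9.78%, and PNPi+dG/rG kept it at 56.0%. In PNPi+dG/rG+polyU, Ccrl2 made up 46.7% and Fpr2 43.6%, and Cxcr4 was 3.16%. In R848 the order of the leading pair was turned, with Fpr2 at 50.8% and Ccrl2 at 34.8%, and Ccr1 came next at 9.46%. Between the libraries of a pair, Ccrl2 ranged from 45.9% to 47.4% in PNPi+dG/rG+polyU and from 34.2% to 35.3% in R848. The polyU pair differed more, with Cx3cr1 at 14.8% and 9.54% and Ccrl2 at 8.20% and 11.3%.

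**Figure D3:**
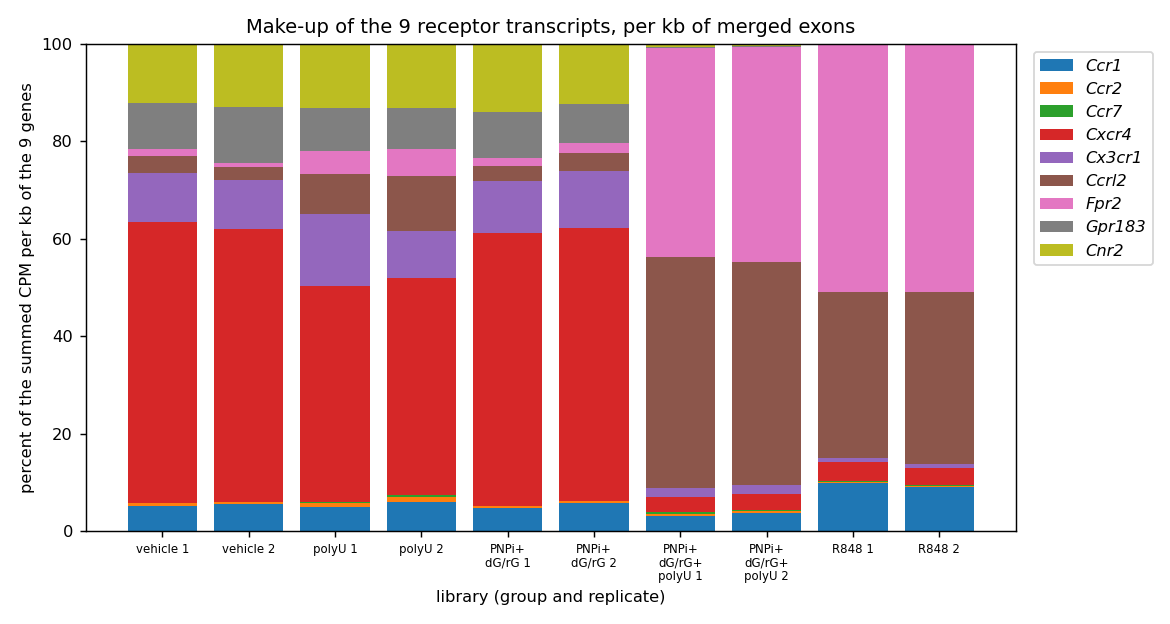
Share of each receptor, in percent of the summed CPM per kb of merged exon of the 9 genes, in each of the 10 libraries as stacked bars. Cxcr4 fills 44.4% to 57.5% of the bars of vehicle, polyU and PNPi+dG/rG, and Ccrl2 and Fpr2 fill most of the bars of PNPi+dG/rG+polyU and R848.

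Ligands and ligand enzymes of the members, a list of 25 genes, had 18 tested. In PNPi+dG/rG+polyU, 8 of the 18 rose and 3 fell, with a median log2 difference of 1.05 against -0.22 over all genes, and centering the libraries gave 10 and 2. In R848, 9 rose and 4 fell, or 9 and 3 with centering, with a median of 1.02 against -0.50. Of all genes, 8.12% were called higher and 14.3% lower in PNPi+dG/rG+polyU, and 8.89% and 30.3% in R848. Camp and Cxcl12, among the 9, passed the filter only through R848, where they are high, so they could not have been counted as falling there. Camp is also among the 8. PolyU alone raised 2, Ccl12 and Ccl3, where 3.21% of all genes were called higher. PNPi+dG/rG called 0 (5 had an unadjusted p under 0.05, as did 1076 of all 11978 genes, and voom called 0). The interaction gave 7 higher and 3 lower, or 9 and 2 with centering, where 4.55% of all genes were called higher and 8.87% lower. The plot of receptors beside their ligands has Ccl3, Ccl5 and Saa3 well above 0 and Dagla and Daglb well below it in both stimuli.

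**Figure D4:**
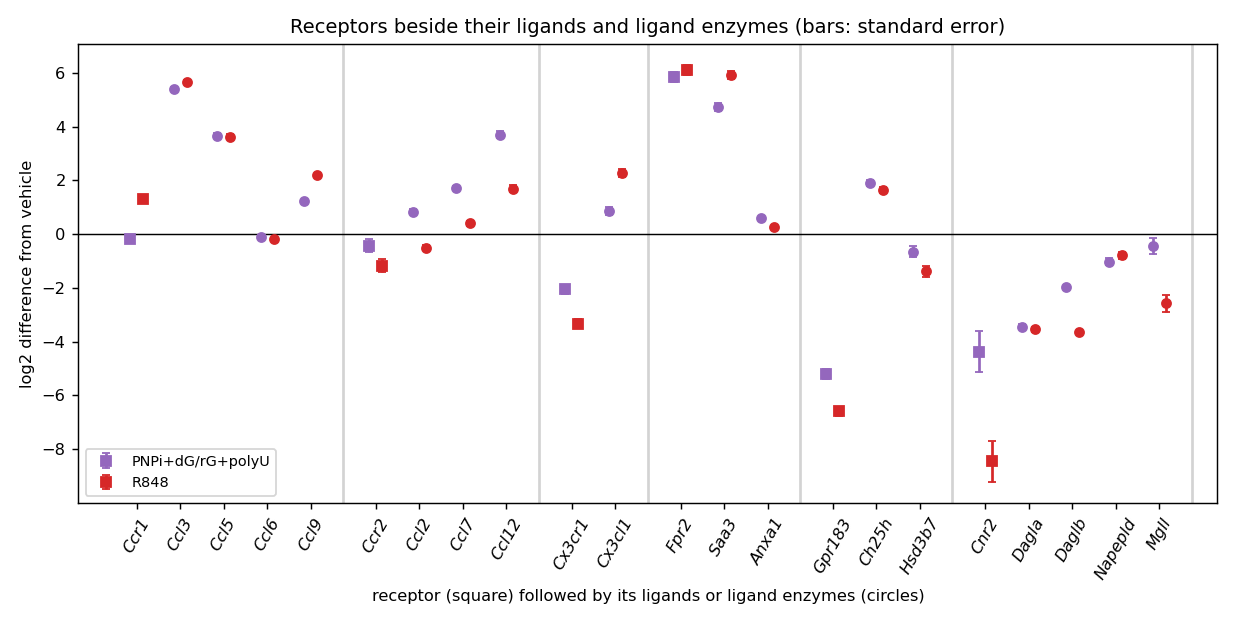
Log2 difference from vehicle in PNPi+dG/rG+polyU and R848 for 6 receptors (squares), each followed by tested ligands or ligand enzymes (circles), Cxcl12 and Camp being left out for their few reads, with bars for the standard error. Ccl3, Ccl5, Saa3 and Ch25h are above 0 in both, and Dagla and Daglb below 0 in both, and Ccl2 is above 0 in PNPi+dG/rG+polyU and below it in R848.

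Other chemokine receptors were mostly silent in these cells. Of the 17 on the list, 5 (Ccr8, Cxcr6, Xcr1, Ackr1 and Ackr2) had 0 reads in all libraries and 3 were tested. Ccr3, a receptor best known from eosinophils, rose in PNPi+dG/rG+polyU from 3.03 and 3.48 to 7.43 and 8.65 CPM (1.30, adjusted p = 2.08e-05, limma). Ccr9, known for homing to the gut, rose from 0.225 and 0.337 CPM to 2.41 and 2.39 in PNPi+dG/rG+polyU and 3.50 and 3.03 in R848, and Cxcr3, a receptor of interferon-induced chemokines, fell from 5.61 and 4.21 to 0.779 and 0.422 and to 0.266 and 0.398. Those 2 were chosen after their values were seen.

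In all, 2 of the 3 rose and 1 fell in PNPi+dG/rG+polyU (Ccr9 and Ccr3, and Cxcr3), with a median log2 difference of 1.30 against -0.22 over all genes. Of all genes, 8.12% were called higher and 14.3% lower in PNPi+dG/rG+polyU, and 8.89% and 30.3% in R848. Ccr9 passed the filter only through these groups, where it is high, so it could not have been counted as falling in either, and it moves the median. In R848, 1 rose and 1 fell (Ccr9 and Cxcr3), or 2 and 1 with centering, and Ccr3 was at 5.31 and 7.20 CPM there (0.93, under 2-fold). Neither polyU nor PNPi+dG/rG gave a call in limma (0 with an unadjusted p under 0.05 in each) or in voom. Of the members, Ccr1 and Ccr2 lie near Ccr3 on chromosome 9, with 70.26 kb between Ccr3 and Ccr2.

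Other chemoattractant and lipid receptors had 22 of 36 genes tested. In PNPi+dG/rG+polyU, 7 rose and 8 fell, or 7 and 6 with centering, and in R848, 10 rose and 8 fell, with medians of -0.21 and 0.02 against -0.22 and -0.50 over all genes. Of all genes, 8.12% were called higher and 14.3% lower in PNPi+dG/rG+polyU, and 8.89% and 30.3% in R848. Gpr18, counted as rising in both groups, passed the filter only through them, where it is high. Ptger3, counted as rising in PNPi+dG/rG+polyU, reached 1 CPM only there (2.05 and 1.90 CPM) and in PNPi+dG/rG replicate 1 (1.04 CPM). Without the PNPi+dG/rG+polyU libraries it would not have passed, so it could not have been counted as falling in that group. Hcar2, the receptor for niacin and ketone bodies, rose from 2.86 and 3.15 CPM to 209 and 213 in PNPi+dG/rG+polyU and 205 and 213 in R848 (log2 differences of 6.13 and 6.12, adjusted p = 1.02e-15 and 3.88e-16, limma). Gpr18, a receptor for lipid mediators, went from 3 reads over both vehicle libraries to 285 and 1371 reads over the PNPi+dG/rG+polyU and R848 pairs, ratios of 119 and 316 with exact 95% intervals of 40.4 to 582 and 108 to 1535.

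Among the receptors that fell, C5ar2, the second receptor for the complement fragment C5a, went from 16.8 and 14.6 CPM to 1.63 and 1.41 in PNPi+dG/rG+polyU (log2 difference -3.37, adjusted p = 1.31e-10, limma) and 2.28 and 1.59 in R848. The sphingosine 1-phosphate receptor S1pr1, which drives exit from lymphoid tissue, fell by 2.96 and 2.05, and S1pr2, which opposes migration, fell by 1.19 (-0.98 and no longer called with centering) and 2.92, so that S1pr1 was lower in PNPi+dG/rG+polyU and S1pr2 lower in R848. The direct contrast of the 2 stimuli was -0.91 for S1pr1 (adjusted p = 5.8e-08) and 1.73 for S1pr2 (adjusted p = 2.05e-11, limma), the first under 2-fold. The lysophosphatidic acid receptors Lpar6 and Lpar5 fell by 3.03 and 2.87 in PNPi+dG/rG+polyU and by 2.25 and 5.63 in R848. The Lpar5 level in R848 rests on 3 and 14 reads (0.159 and 0.429 CPM), so the size of that fall is uncertain.

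With polyU alone, 4 of these receptors rose (Fpr1, Gpr18, Gpr84 and Hcar2) and 1 fell (Gpr35). Of all genes, 3.21% were called higher and 0.776% lower with polyU. The call for Gpr18 was lost with a pseudocount of 1 and with only the groups compared, and that for Gpr35 with a pseudocount of 1, without vehicle replicate 1 and without polyU replicate 2. With PNPi+dG/rG, 0 were called (4 had an unadjusted p under 0.05, as did 1076 of all 11978 genes, and voom called 0). PNPi+dG/rG+polyU against R848 gave 5 higher (Lpar5, Cysltr2, Ptger3, S1pr2 and Ptger4) and 7 lower, or 5 and 11 with centering. Of all genes, 16.9% were called higher and 3.86% lower in that contrast. Ptger3 passed the filter only with the PNPi+dG/rG+polyU libraries, so it could not have been counted as lower in them. Gpr84, Gpr35, Cysltr2, Ptger3 and Ptger4 were named after their values were seen.

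The list of signaling parts that these receptors share had 29 of 30 genes tested. Among them, 3 rose and 3 fell in PNPi+dG/rG+polyU, with a median of -0.10 against -0.22 over all genes. Of all genes, 8.12% were called higher and 14.3% lower there. Pik3r6 and Pik3r5, regulatory subunits of the phosphoinositide 3-kinase γ that chemoattractant receptors activate, rose by 2.66 and 1.94 (adjusted p = 4.45e-13 and 4.53e-15, limma), Pik3r5 from 350 and 366 to 1388 and 1349 CPM. Grk3, a kinase that desensitizes receptors, rose by 1.84 in PNPi+dG/rG+polyU and was 0.55 higher in R848, and the contrast of the 2 stimuli was 1.29 (adjusted p = 2.29e-09, limma) and, with centering, 0.91, under 2-fold. Plcb2, a phospholipase C downstream of Gi-coupled receptors, fell from 159 and 159 to 45.3 and 39.0 CPM in PNPi+dG/rG+polyU and to 10.6 and 11.7 CPM in R848 (-1.92 and -3.83, adjusted p = 1.57e-12 and 1.95e-16, limma). The β-arrestin gene Arrb1 fell by 1.50 and 1.67, and Rassf5, an effector of Rap1 in adhesion, by 1.22 and 1.91.

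In R848, 4 signaling genes rose (Pik3r6, Pik3r5, Rac2 and Gng12) and 8 fell, and centering the libraries turned this split to 8 and 4. Of all genes, 8.89% were called higher and 30.3% lower in R848. The call for Gng12 (1.06) was lost without vehicle replicate 2 (1.00). Against R848, PNPi+dG/rG+polyU had 4 higher (Plcb2, Grk3, Gnb4 and Gna15) and none lower, or 1 and 1 with centering. In that contrast 16.9% of all genes were called higher and 3.86% lower, so the list leaned the same way as all genes. Gng12, Gnb4 and Gna15 were named after their values were seen. PolyU called 0 (18 had an unadjusted p under 0.05) and PNPi+dG/rG called 0 (1, Plcb2), and voom called 0 in both. Of all 11978 genes, 5612 had an unadjusted p under 0.05 with polyU and 1076 with PNPi+dG/rG.

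The genes whose profile over the 10 libraries was most like each member were found by Pearson's r of log2(CPM + 1) among 9550 genes averaging 5 CPM or more, as a description over libraries that share their groups. Cxcr4 was closest to Zfand2a, with r = 1.00, and to Lhfpl2, with 0.998. Cnr2 was closest to Stat6 (0.999) and Dapk1 (0.998), Gpr183 to Emilin1 (0.998) and Fgfr1 (0.998), and Cx3cr1 to Gart (0.996) and Zfp961 (0.996). Fpr2 was closest to Ccl3 (0.999), the Ccr1 ligand above, and Mtdh (0.999), and Ccrl2 to Fam49a (0.999) and Tnfaip2 (0.999). The likeness was lower for the members with other patterns or few reads, with Gpatch2l (0.991) and Sh3glb1 (0.988) nearest to Ccr1, AC114539.1 (0.984) and Mafg (0.981) nearest to Ccr7, and Gm13588 (0.934) and Axl (0.914) nearest to Ccr2. Since the 4 libraries of PNPi+dG/rG+polyU and R848 stand apart for most members, a high r says that a gene separates those libraries from the rest by a like proportion of its own range.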

How the data were processed

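RNA from 10 BMDM libraries (5 groups, 2 libraries each) was measured by RNA-Seq in single reads of 50 bp. The authors mapped reads to GRCm38 with STAR (2.27a in the submitters' processing notes), counted reads per gene of Ensembl release 97 and deposited CPM, reads per gene scaled to a common total, with an offset of 0.0001 on every value. CPM does not correct for shifts in composition, in which strongly induced genes lower the values of all others. The strand setting of the count and its rule for shared reads are not given in the sources used here, so overlapping genes are uncertain. Columns of comparisons by the authors were not among the files used.

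The steps between low values gave each library's reads: 100% of values under 1000 reads were within 0.1 of a whole read. Count tools were not run, since the unit is normalized. limma 3.58.1 (R 4.3.3, statmod 1.5.0; eBayes with trend and robust) was fitted to log2 of the deposited values of all 10 libraries, for the 11978 genes that reached 1 CPM in 2 or more libraries, with Benjamini-Hochberg adjustment within each comparison. A gene was called at an adjusted p under 0.05 and at least 2-fold. Log2 differences are on the scale of the deposited values. Errors of single members are standard errors of that fit.

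Counts were simulated around the mean levels of these libraries, with changes well past 2-fold given to some genes in R848. The fit found all of those genes in the right direction. The spread between replicates was assumed and not taken from these libraries. Such settings made this outcome likely in advance, so it says little about these groups of 2 libraries. How the fit does for genes with few reads, for differences near 2-fold or under shifts in composition was not tested. No pair of replicates agreed within sampling noise. Same-numbered libraries did not deviate together (correlations of -0.286 to 0.109 over 10 pairs), so the numbers were not taken as pairs. Positions are from GENCODE M21, in which 55394 of the identifiers have a symbol, and promoters from RefSeq on GRCm38.p6.

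The members and the 4 gene lists were chosen with earlier results of these data known, and 1 gene of the lists is not reported here. Named genes are the members; from each list, the 3 called genes that moved most each way in PNPi+dG/rG+polyU or R848 against vehicle with a mean of at least 5 CPM in 1 of the 2 groups; all tested ligand genes; and the 2 genes most like each member. Ccr9, Cxcr3, Gpr84, Gpr35, Cysltr2, Ptger3, Ptger4, Gng12, Gnb4 and Gna15 were named after their values were seen, where a count was 5 or fewer. Alternatives were pseudocounts of 0.1 and 1, no filter, a filter on the mean, centering of libraries, plain eBayes, only the groups compared, the replicate block, leaving out each library and, added after the values were seen, voom on recovered reads.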

Additional observations from a re-analysis of the deposited data

Results flagged for a closer look

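With 2 libraries a group, no library was tested as standing apart. What drew attention was a difference in the effect of PNPi+dG/rG with and without polyU, the interaction in limma, for 21 genes of the 4 lists that the naming rule had picked by their change from vehicle. In all, 30 genes of the lists were called in the interaction, where 3, 22, 18 and 29 were tested in the 4 lists. Of all genes, 4.55% were called higher and 8.87% lower in it. Napepld and Rac2 were picked by the same rule but not called. The change from vehicle in PNPi+dG/rG+polyU ranked most of these genes and is part of the interaction. Their adjusted p thus describe a set selected on the same libraries. Values are log2 differences between the 2 effects, with adjusted p over all genes tested.

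Among receptors, the effect was more positive with polyU for Gpr18 (5.29, adjusted p = 5.11e-06, from 3 vehicle reads), Hcar2 (4.00, adjusted p = 4.99e-11), Fpr1 (3.52, adjusted p = 1.65e-09) and Ccr3 (1.39, adjusted p = 0.000653). It was more negative for Lpar6 (-2.63, adjusted p = 5.31e-06), Lpar5 (-2.48, adjusted p = 0.00134), C5ar2 (-2.35, adjusted p = 2.23e-06), S1pr1 (-2.04, adjusted p = 7.21e-10) and S1pr2 (-1.36, adjusted p = 4.16e-08).

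For ligands and ligand enzymes it was more positive for Saa3 (4.49, adjusted p = 9.75e-06), Ccl3 (3.77, adjusted p = 3.59e-11), Ccl5 (3.35, adjusted p = 2.62e-08) and Ccl12 (1.99, adjusted p = 2.73e-07), and more negative for Dagla (-2.38, adjusted p = 9.4e-10) and Daglb (-1.39, adjusted p = 9e-09).

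In the signaling list, Pik3r6 (1.69, adjusted p = 3.89e-08), Pik3r5 (1.32, adjusted p = 1.88e-10) and Grk3 (1.02, adjusted p = 4.79e-06) were more positive, and Plcb2 (-1.60, adjusted p = 4.76e-09), Arrb1 (-1.34, adjusted p = 7.79e-10) and Rassf5 (-1.10, adjusted p = 5.43e-07) more negative. With centering Rassf5 was no longer called (-0.81), and Grk3 was no longer called with a pseudocount of 1, without polyU replicate 1 or without PNPi+dG/rG replicate 1 (lowest value 0.97). Both libraries of PNPi+dG/rG+polyU lay on the same side of both polyU libraries for each gene. The way the genes were picked made this near certain, so it adds no support. Fpr2, Ccrl2, Gpr183, Cnr2, Cxcr4 and Cx3cr1 also differed in the interaction, but they were chosen with these values known.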

How the results depend on the processing

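No called difference of a member, or of a list gene picked by the naming rule, changed direction under any alternative that was run. Of the counts of calls, 310 of 315 under other settings and 345 of 350 with 1 library left out stayed within 1.5 times their value. These counts join both directions, so a changed split can pass as the same. With centering, signaling genes in R848 went from 4 higher and 8 lower to 8 and 4 in this way. For the members in PNPi+dG/rG against vehicle, the 0 calls became 1 with no filter (Ccr7) and ranged from 0 to 1 with a library left out (Fpr2, without vehicle replicate 1). Members called in PNPi+dG/rG+polyU against R848 fell from 4 to 2 with centering. Other chemokine receptors called in PNPi+dG/rG+polyU against vehicle went from 3 to 5 with no filter, and those against R848 (0, with 1 at an unadjusted p under 0.05 in limma and 0 by voom) ranged from 0 to 1 with a library left out (Cxcr3, without PNPi+dG/rG+polyU replicate 2 or R848 replicate 2). Chemoattractant and lipid receptors called with polyU went from 5 to 3 with a pseudocount of 1 (Gpr18 and Gpr35 lost). Signaling genes called with polyU ranged from 0 to 1 (Pik3r6, without vehicle replicate 2 or polyU replicate 1), and those called in PNPi+dG/rG+polyU against R848 went from 4 to 2 with centering. For these the cause was not tested, except that without the filter 55573 genes were tested in place of 11978. Centering also moved the split of ligand genes in PNPi+dG/rG+polyU against polyU from 7 and 3 to 10 and 2, and against R848 from 5 and 2 to 3 and 3, and that of signaling genes against polyU from 2 and 3 to 3 and 2 and in the interaction from 3 and 3 to 3 and 2. Over all genes, the calls in PNPi+dG/rG against vehicle were 9, and 95 with no filter. The log2 difference of Ccr2 in R848 ranged from -1.41 to -0.58, of Gpr183 against R848 from 0.42 to 1.41, of Cx3cr1 against R848 from 0.90 to 1.35 and of the Cnr2 interaction from -4.36 to -3.48 over the alternatives. The replicate block gave the same member counts in all 7 comparisons (6 in PNPi+dG/rG+polyU and 8 in R848 against vehicle) and 971 higher and 1708 lower calls over all genes in PNPi+dG/rG+polyU against vehicle. The 2 planned count tests were not run, because the deposited unit is CPM. Depth limits Ccr7, Cxcl12 and Camp in vehicle, Gpr183 and Cnr2 after stimulation and Lpar5 in R848.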
